A study of Mus musculus with 24 samples.

Results

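Betacellulin (Btc) was followed together with 5 other ligands of the EGF receptor (Egf, Hbegf, Areg, Ereg and Tgfa) and the 4 ERBB receptors (Egfr, Erbb2, Erbb3 and Erbb4) in perigonadal fat of mice. The 10 genes were chosen by name, among the 24647 genes that carry a symbol on the array, and a gene with several transcript clusters (the array's unit of a transcript) was represented by the cluster of highest mean. They hold 12 of the 41345 clusters, because Egf and Ereg have 2 each, and all 10 genes passed the floor described below.

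The tissue came from 24 male mice on a C57BL/6 background, 12 Control mice (genotype AdipoQ-LpL -/-) and 12 AdipoQ-LPL mice (AdipoQ-LpL -/+), which carried a lipoprotein lipase transgene driven by the adiponectin promoter and so meant for adipocytes. The Control mice were littermates of transgenic mice. All mice were 9.5 weeks old and had eaten a diet with 60% of calories from fat for 10 days, so no group on chow enters the comparisons. Each mouse gave an Affymetrix mouse exon array whose values were normalized by RMA and are on the log2 scale, where a difference of 1 is a 2-fold change. The question was which of the ligand and receptor mRNAs differed between the genotypes early on the high fat diet.

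Betacellulin is made as a membrane-bound precursor that the protease ADAM10 releases, and it binds both EGFR and ERBB4. It is known for promoting growth and differentiation of pancreatic β-cells in culture. EGF, TGFA and amphiregulin (Areg) act on EGFR, while heparin-binding EGF (Hbegf) and epiregulin (Ereg) also bind ERBB4. Receptors work in pairs. ERBB2 has no known ligand and serves as the partner, and ERBB3 binds neuregulins but has almost no kinase activity of its own. In bulk tissue fewer cells of a type and less RNA per cell both lower a value and cannot be told apart.

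The animal numbers in the labels form 2 sets. Numbers 289 to 437 hold 5 Control and 8 AdipoQ-LPL mice, and numbers 842 to 877 hold 7 Control and 4 AdipoQ-LPL mice. In the first set all 5 Control and 2 AdipoQ-LPL mice are numbered 289 to 295, and 6 AdipoQ-LPL mice 422 to 437. Genotype and these runs of numbers therefore cannot be fully told apart in first-set comparisons. Array medians over the tested clusters were 6.86 to 6.97 in the first set and 7.22 to 7.29 in the second. The labels do not say what divides the sets. The number set was therefore kept in the limma model beside the genotype. Tested were the 20208 named clusters whose mean reached a floor of 5 (log2) in at least 1 genotype. Of these 2 passed an adjusted p of 0.05 between genotypes (0.0099%), Snd1 with a log2 difference of -0.68 and Lrrc4 with 1.18, and 1692 had an unadjusted p under 0.05 (8.37%). The Lpl cluster of highest mean differed by -0.024 (SE 0.036), Control mice averaging 13.6 ± 0.15 and AdipoQ-LPL mice 13.5 ± 0.18 (SD, n = 12 each). Another Lpl cluster differed by 0.057 (SE 0.095). Whether the probes of either match the transgene is not stated in the labels or methods, so neither checks the labels. The 5 adipocyte markers had a mean level of 11.4 to 12.0 in every mouse. Of the 8 markers of epididymis epithelium, a neighbouring tissue, Cst8, Rnase9 and Ovch2 were below the floor.

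None of the 10 genes passed the adjusted threshold between genotypes. The smallest adjusted p in limma was 0.61, for Btc, and none of the 10 had an unadjusted p under 0.05, beside 8.37% of all tested clusters. In this model with the number set, none met the study's fold and unadjusted p thresholds either, which 55 of the 20208 clusters met (0.272%). The methods' t-test, unpaired and without the number set, put none of the 10 past those thresholds and 81 clusters (0.401%). By it none of the 10 had an unadjusted p under 0.05, beside 5.72% of clusters, and 1 cluster, Snd1, was called (0.00495%). The methods do not name this test for the arrays, so these counts do not say which genes the study itself listed. The difference, AdipoQ-LPL minus Control, was above 0 in 6 of the 10 genes, against 53.7% of all tested clusters, with a median of 0.022 beside 0.0072 over all tested clusters. The genotypes overlapped for all 10 genes within both number sets, where 0.351% and 1.48% of clusters did not overlap. Their spread between mice ranged more widely, from a residual SD of 0.10 for Areg to 0.82 for Erbb3.

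**Figure D1:**
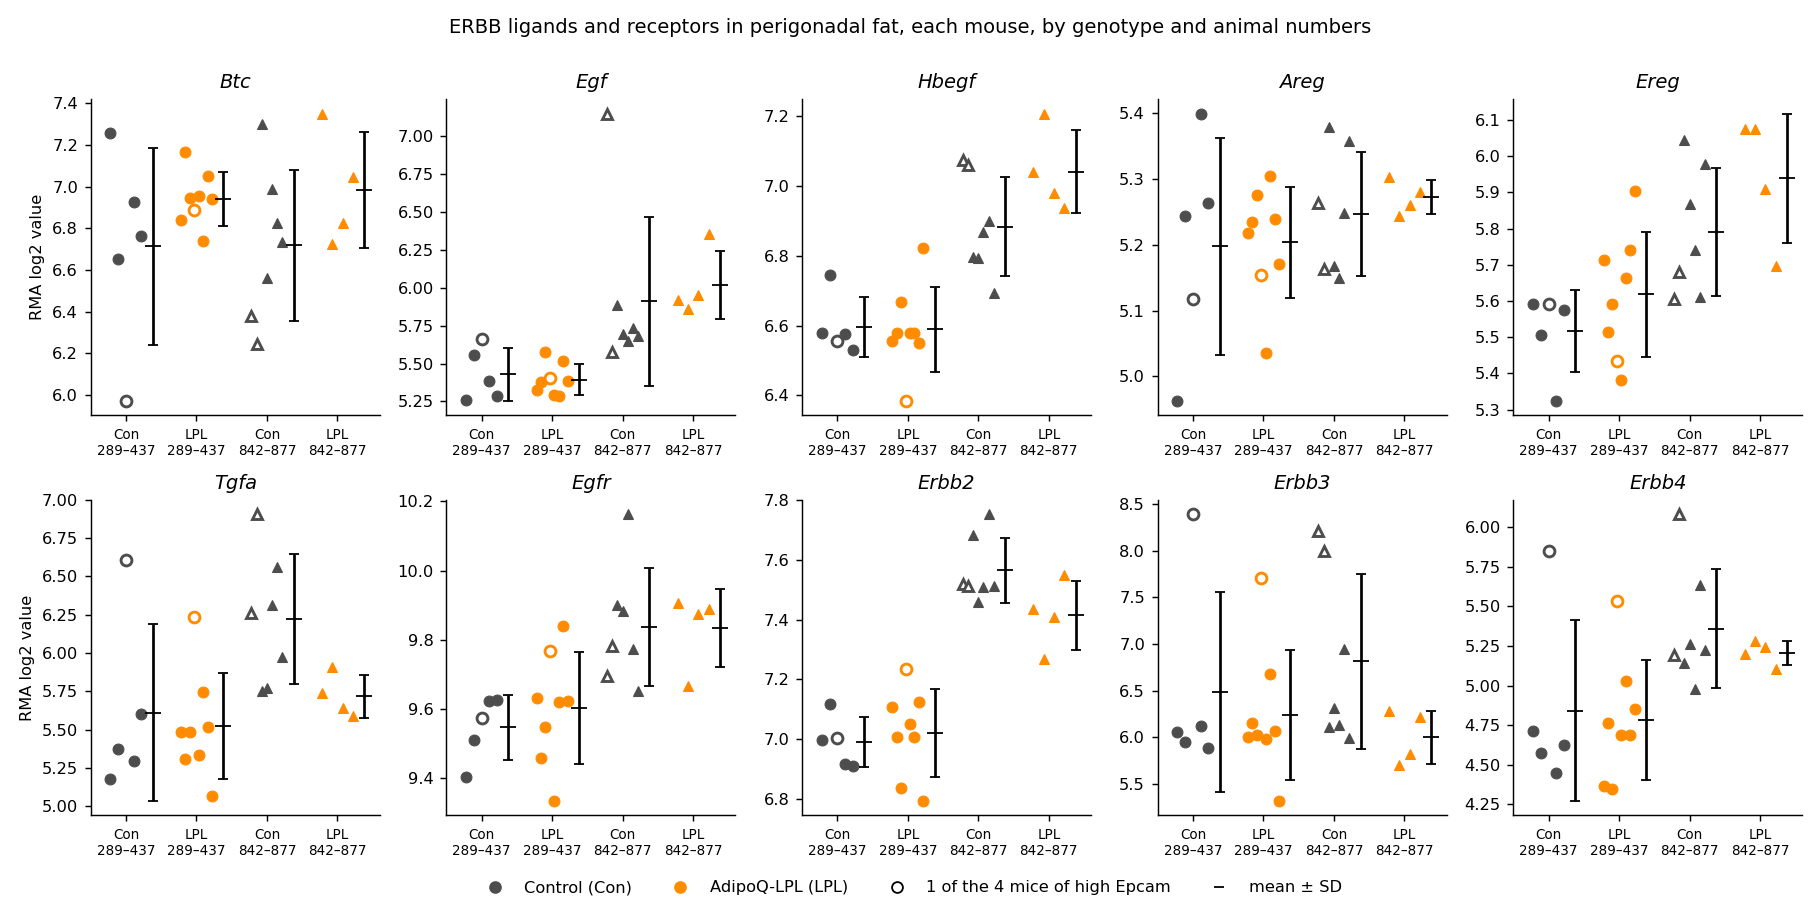
RMA log2 values of the 10 genes (y axis) in each of the 24 mice, by genotype and animal numbers (x axis), with the mean ± SD of each group. Hollow points are Control 3, 6 and 7 and AdipoQ-LPL 8, the 4 mice of high Epcam, which hold the 4 highest Erbb3 values, from 7.71 to 8.40.

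Btc was higher on average in AdipoQ-LPL mice of both number sets, without passing the test. In the first set the 5 Control mice read 7.26, 6.65, 5.97, 6.93 and 6.76, and the 8 AdipoQ-LPL mice lay between 6.74 and 7.16 with a median of 6.94. The AdipoQ-LPL mice thus sat in a narrow band inside the range of the Control mice. In the second set the 7 Control mice ran from 6.24 to 7.30 with a median of 6.73, and the 4 AdipoQ-LPL mice read 7.35, 6.72, 6.82 and 7.05. Of the AdipoQ-LPL mice, 7 of 8 and 3 of 4 were above the Control median of their own set. The 3 lowest values of all 24 mice were those of Control 3, 6 and 7, at 5.97, 6.38 and 6.24.

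Control mice averaged 6.72 ± 0.39 and AdipoQ-LPL mice 6.96 ± 0.18 for Btc (SD, n = 12 each). In limma the log2 difference was 0.25 (SE 0.12, 1.19-fold, p = 0.061, adjusted p = 0.61). Within the first set it was 0.23 and within the second 0.27, with exact permutation p of 0.22 and 0.23 (two-sided, unadjusted, all 1287 and 330 relabellings). These are 2 of 20 such comparisons, for 10 genes in 2 sets, and none of the 20 had a p under 0.05. The first-set relabellings do not keep the 2 runs of its numbers apart. The first-set difference rested on single mice, at 0.042 without Control 3 (exact permutation p = 0.70) and 0.36 without Control 1 (exact permutation p = 0.018). Without Control 3, 6 and 7 and AdipoQ-LPL 8 the Btc difference was 0.075 (SE 0.097), with an adjusted p of 0.90. As these Control mice hold the lowest Btc values, leaving them out was bound to lower the difference.

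Transforming growth factor alpha (Tgfa) was lower on average in AdipoQ-LPL mice, mainly in the second number set. There the 7 Control mice ran from 5.75 to 6.91 with a median of 6.26, and the 4 AdipoQ-LPL mice read 5.74, 5.91, 5.64 and 5.59. All 4 were below the Control median, and 3 of them were also below the lowest Control mouse. In the first set the 5 Control mice read 5.18, 5.37, 6.60, 5.30 and 5.60, and the 8 AdipoQ-LPL mice lay between 5.07 and 6.23 with a median of 5.48. Here the genotypes overlapped throughout, and Control 3 and AdipoQ-LPL 8 were the highest of their groups.

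The Tgfa log2 difference was -0.28 (SE 0.16, 1.21-fold lower), with p = 0.10 and adjusted p = 0.65 in limma. It was -0.50 within the second set (exact permutation p = 0.052, two-sided) and -0.088 within the first (exact permutation p = 0.75), where it was 0.16 without Control 3. The difference between the sets was itself tested as an interaction, at -0.41 (SE 0.32) with an unadjusted p of 0.21. In a limma fit without the number set, Tgfa was the 1 gene of the 10 with an unadjusted p under 0.05 (p = 0.038, adjusted p = 0.69), beside 5.63% of all tested clusters. The same held in a limma fit of the second set alone (p = 0.026, adjusted p = 0.47), where the share of all clusters was 9.38%. In the first set alone no gene of the 10 reached that level, against 8.1% of clusters. Without the 4 mice of high Epcam the Tgfa difference was -0.13 (SE 0.11).

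Epidermal growth factor itself (Egf) had a single mouse far from the rest. Control 6 read 7.15, and the next highest of the 24 mice read 6.35. In the first set Egf lay between 5.26 and 5.66 in the 5 Control mice and between 5.28 and 5.58 in the 8 AdipoQ-LPL mice. The other 6 Control mice of the second set lay between 5.57 and 5.88, and the 4 AdipoQ-LPL mice there read 5.92, 5.86, 5.95 and 6.35. The limma difference was 0.031 (SE 0.13), with an adjusted p of 0.95. Without the 4 mice of high Epcam, of which Control 6 is 1, it was 0.15 (SE 0.069), with p = 0.043 and adjusted p = 0.72. Leaving out Control 6, which holds the highest Egf, was bound to raise the difference. The other Egf cluster, of 3 markers against 21, was below the floor, with means of 3.78 ± 0.21 and 3.77 ± 0.21 (SD, n = 12 each).

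Hbegf had a limma difference of 0.067 (SE 0.054, adjusted p = 0.74). In the second set the 7 Control mice ran from 6.69 to 7.07 and the 4 AdipoQ-LPL mice read 7.04, 7.21, 6.98 and 6.94. In the first set the values were 6.53 to 6.75 in Control and 6.39 to 6.82 in AdipoQ-LPL mice, and the difference there was -0.0075. Without the 4 mice of high Epcam, Hbegf and Egf were the 2 genes of the 10 with an unadjusted p under 0.05 in limma, beside 6.88% of all clusters. For Hbegf the difference was then 0.11 (SE 0.052, p = 0.042, adjusted p = 0.72). Neither gene was called, and 3 of the 20208 clusters were (0.0148%), namely Lrrc4, Snd1 and Begain. Within the second set, these omissions gave 0.23 for Hbegf (exact permutation p = 0.0079) and 0.29 for Egf (exact permutation p = 0.024), again among 20 unadjusted comparisons. Control 6 and 7 held the highest Hbegf of the second-set Control mice (7.07 and 7.06), and Control 6 the highest Egf. Leaving them out was therefore bound to raise both differences. The omission was chosen after the values were seen.

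Areg and Ereg lie beside Btc on chromosome 5, in the order Epgn, Ereg, Areg and Btc among the protein-coding genes. Areg was the least variable ligand, between 4.96 and 5.40 in all mice and so near the floor of 5. Its limma difference was 0.015 (SE 0.045, adjusted p = 0.93). Ereg averaged 5.68 ± 0.20 in Control mice and 5.72 ± 0.23 in AdipoQ-LPL mice (SD, n = 12 each), with a limma difference of 0.12 (SE 0.067, p = 0.081, adjusted p = 0.64). The other Ereg cluster, of 7 markers against 3, gave 0.13 (SE 0.068, p = 0.063, adjusted p = 0.61). The ligands of this stretch therefore had differences from 0.015 to 0.25, all above 0 and none past the threshold. For Epgn (epigen), at the other end of the row, it was 0.13 (SE 0.088, p = 0.14, adjusted p = 0.68).

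Among the receptors Egfr, which all 6 ligands bind, was close in level between the genotypes, with means of 9.72 ± 0.20 for Control and 9.68 ± 0.18 for AdipoQ-LPL mice (SD, n = 12 each). Its limma difference was 0.030 (SE 0.060, adjusted p = 0.89), and within the sets it was 0.056 and -0.0019. Erbb2, the partner receptor, differed by -0.051 (SE 0.054, adjusted p = 0.80). It read 6.91 to 7.12 in the first-set Control mice and 6.79 to 7.24 in the first-set AdipoQ-LPL mice. In the second set the 7 Control mice ran from 7.46 to 7.75, and the 4 AdipoQ-LPL mice read 7.43, 7.27, 7.41 and 7.55. The second-set difference was -0.15 (exact permutation p = 0.067) and the first-set one 0.030, and the interaction had an unadjusted p of 0.098, the smallest of the 10 genes.

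Erbb3 had the widest spread of the 10 genes. In the first set the 5 Control mice read 6.06, 5.95, 8.40, 6.12 and 5.88, and the 8 AdipoQ-LPL mice lay between 5.32 and 7.71 with a median of 6.05. In the second set the 7 Control mice ran from 5.99 to 8.21 with a median of 6.31, and the 4 AdipoQ-LPL mice read 6.28, 5.70, 5.81 and 6.21. Most mice of both genotypes were near 6, and Control 3, 6 and 7 and AdipoQ-LPL 8 stood apart at 8.40, 8.21, 8.00 and 7.71, above the 6.95 of the next mouse. The limma difference was -0.50 (SE 0.32, 1.41-fold lower), with p = 0.13 and adjusted p = 0.67. Without these 4 mice it was -0.12 (SE 0.14, adjusted p = 0.88). They hold the 4 highest Erbb3 values and 3 are Control, so leaving them out was bound to make the difference less negative. The first-set difference of -0.24 was 0.24 without Control 3.

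Erbb4, a receptor for betacellulin and for neuregulins, shared part of that pattern. Its mean was 5.14 in Control and 4.92 in AdipoQ-LPL mice, so it passed the floor of 5 through the Control mice alone. The first-set Control mice read 4.71, 4.58, 5.85, 4.44 and 4.63, and the 8 AdipoQ-LPL mice lay between 4.35 and 5.54 with a median of 4.72. In the second set the 7 Control mice ran from 4.98 to 6.08 with a median of 5.22, and the 4 AdipoQ-LPL mice read 5.20, 5.28, 5.24 and 5.10. Control 7, Control 3 and AdipoQ-LPL 8 were among the 4 highest of all mice. Control 6, at 5.19, was not. The limma difference was -0.10 (SE 0.16, adjusted p = 0.86), and 0.026 (SE 0.087) without the 4 mice.

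**Figure D2:**
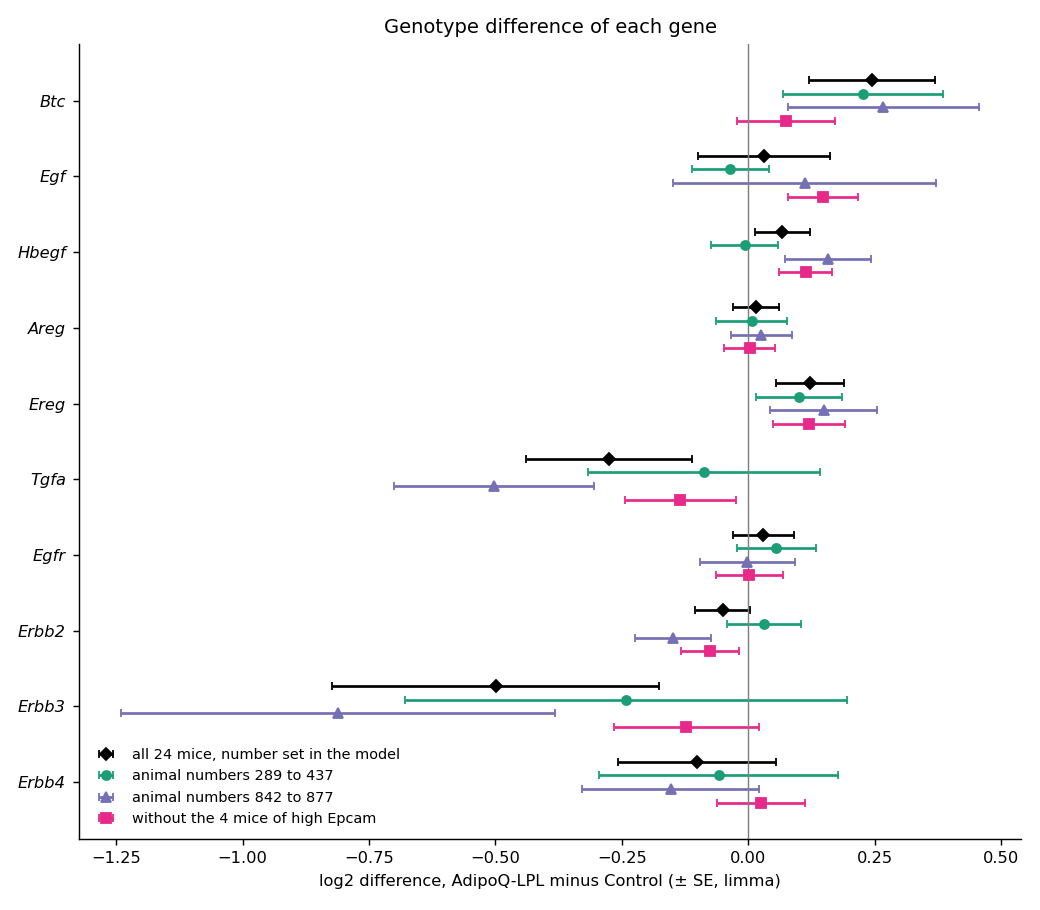
Log2 difference between AdipoQ-LPL and Control mice (x axis, with SE bars from limma) for each gene (y axis), over all 24 mice, within each number set and without the 4 mice of high Epcam. The Btc difference is 0.25 over all mice and 0.075 without these 4, and that of Erbb3 goes from -0.50 to -0.12. The 4 hold the highest Erbb3, and the Control mice among them the lowest Btc. Both shifts therefore follow from which mice were left out.

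The 4 mice were noticed through Erbb3 and are named for Epcam, an epithelial adhesion molecule, a choice made after the values were seen. Epcam read 8.60, 8.22, 9.03 and 7.95 in Control 3, 6 and 7 and AdipoQ-LPL 8, and 3.96 to 6.67 in the other 20. The same 4 mice held the 4 highest values of all 24 for Epcam, the adherens junction cadherin Cdh1, the keratins Krt8 and Krt18, and Erbb3. The list of 5 epithelium markers had a mean level of 5.88 to 8.03 in the first-set and 6.34 to 8.17 in the second-set Control mice, and of 5.59 to 7.74 and 6.22 to 6.38 in the AdipoQ-LPL mice. All 5 had differences below 0 over the 24 mice, with a median of -0.36, and none was called. Of these, 3 were below 0 in the first set, with a median of -0.12, and without the 4 mice 4 of 5, with a median of -0.021. Epithelial markers therefore moved with Erbb3, and their part in the genotype differences was not tested.

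Of the epididymis list, Crisp1 and Adam7 varied most and did not follow the same mice throughout. Crisp1 read 13.9 in Control 6 and 10.7 in Control 9, and at most 7.26 in the other mice. In Control 3, Control 7 and AdipoQ-LPL 8 it read 4.29, 5.06 and 3.70. Control 6 also had the highest value of the smooth muscle myosin Myh11, at 12.4 beside at most 10.0 elsewhere, and the highest Egf. Adam7 was 8.17 in Control 5, whose Erbb3 was 5.88. The Adam7 difference between genotypes was -1.21 (SE 0.44, p = 0.011, adjusted p = 0.51).

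Among the 20 mice outside this group Erbb3 still followed the epithelial markers. After removing the mean of each genotype and number set, Pearson's r of Erbb3 over these 20 mice was 0.81 with Epcam and 0.82 with Krt18. For Tgfa it was 0.51 with Epcam and 0.70 with Krt18, and for Erbb4 0.54 and 0.34. For Btc it was -0.22 and 0.085. The epididymis marker Adam7 had r of 0.48 with Erbb3, 0.56 with Tgfa, 0.48 with Erbb4 and -0.27 with Btc over these 20 mice. With Crisp1, of the same list, r was -0.15, -0.42, 0.0091 and -0.32. These are descriptions without a test, and both values of a mouse come from the same array. Over the 24 mice Epcam and Krt18 were among the 5 clusters most like Erbb3. The 20 mice are part of the 24, so their r with Erbb3 is no separate check.

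**Figure D3:**
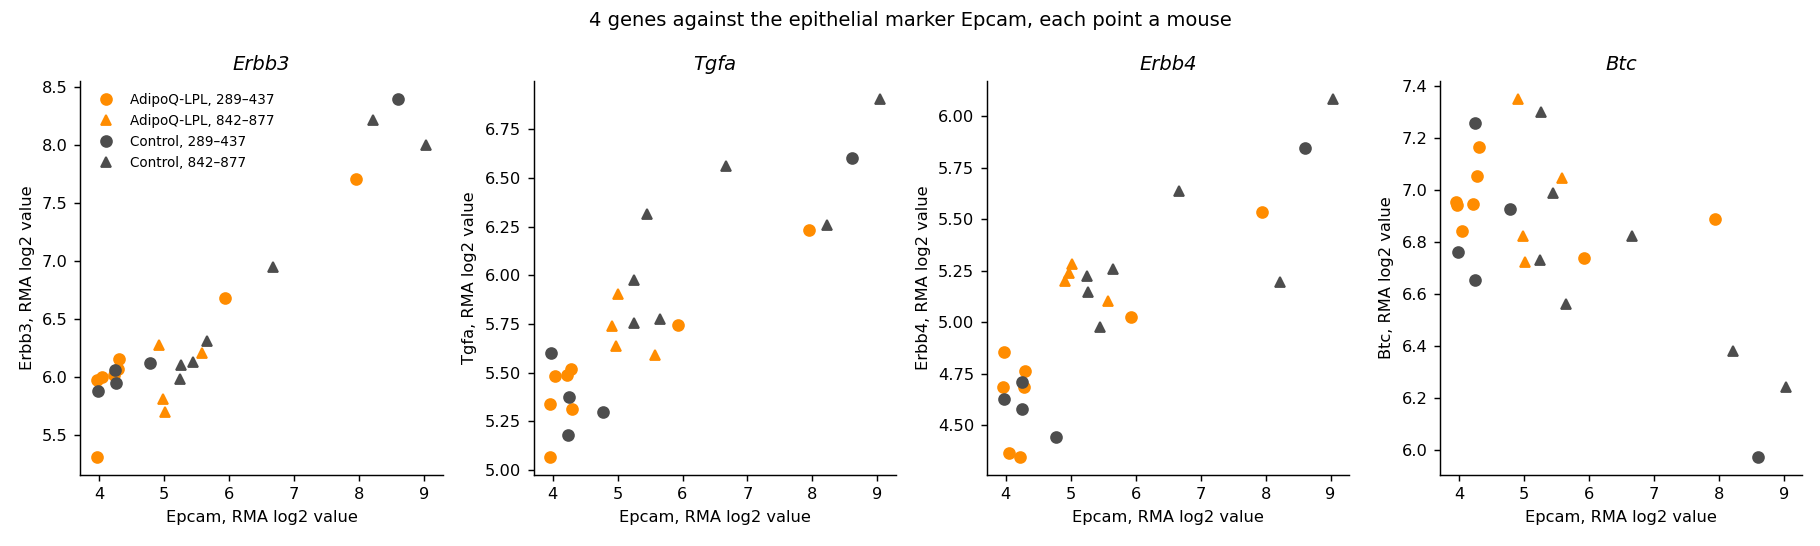
RMA log2 values of Erbb3, Tgfa, Erbb4 and Btc (y axes) against that of Epcam (x axis) in each of the 24 mice, coloured by genotype and shaped by number set. The 4 mice with Epcam above 7.9 have Erbb3 of 7.71 or more, and 3 of them, all Control, have the lowest Btc.

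Pairs of the 10 genes were compared in the same way over all 24 mice. Pearson's r ran from -0.65, for Btc and Tgfa, to 0.82, for Tgfa and Erbb3. Erbb4 went with Tgfa (0.80) and Erbb3 (0.76), and Btc ran opposite to Erbb3 (-0.62) and Erbb4 (-0.58). Without the 4 mice the pair of Btc and Tgfa was at -0.28, Tgfa and Erbb3 at 0.55, Tgfa and Erbb4 at 0.23, and Btc and Erbb3 at 0.067. Over the 20 mice the opposition of Btc to Tgfa, Erbb3 and Erbb4 (-0.15) was thus smaller or gone.

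**Figure D4:**
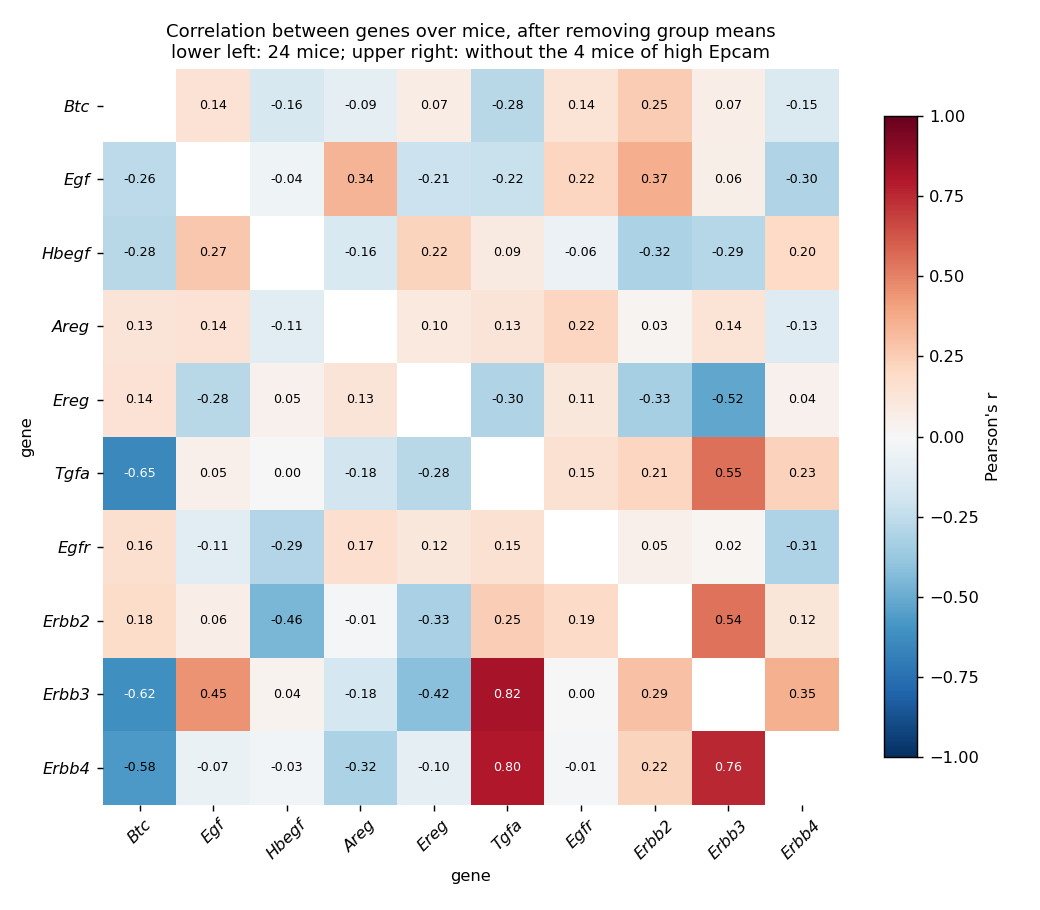
Pearson's r between each pair of the 10 genes (both axes) over mice, after removing the mean of each genotype and number set. The lower left holds all 24 mice and the upper right the 20 mice outside the high Epcam group, and Tgfa with Erbb3 is 0.82 and 0.55.

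The spread around the group means was put beside that of all tested clusters. Erbb3 had a residual SD of 0.82, above 98.9% of the clusters. Tgfa, at 0.41, was above 95.0%, Erbb4, at 0.40, above 94.8%, Egf, at 0.33, above 92.0%, and Btc, at 0.32, above 91.4%. The other 5 genes had residual SDs of 0.10 to 0.16, above 17.2% to 54.1% of clusters. The 10 genes therefore fell into 5 that varied widely between mice and 5 that did not. Without the 4 mice Egf fell to 0.14, above 49.4% of clusters, while Erbb3 stayed above 96.2% and Btc above 87.4%.

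Start sites of the genes that moved together or in opposition are shown as context. RefSeq promoter windows of mouse build GRCm38.p6, from 250 bases before to 50 after the start, matched 7 of the 10 genes by symbol, with 2 windows for Egf. Erbb3, Ereg and Hbegf were not matched. Windows of Btc, Tgfa and Erbb4 are given 5′ to 3′ in the sense of the gene, with matches to 5 motifs in capitals on either strand. The TATA box, TATAAA, was in 13.6% of all 32851 windows of the same length. The GC box, GGGCGG, was in 35.7%. The cyclic AMP response element, TGACGTCA, was in 1.79%. The E-box, CAGGTG, was in 20.2%. The AP-1 site, TGANTCA, was in 7.81%. No matches overlapped in the windows printed here.
Btc promoter, chr5:91402945-91403244, minus strand: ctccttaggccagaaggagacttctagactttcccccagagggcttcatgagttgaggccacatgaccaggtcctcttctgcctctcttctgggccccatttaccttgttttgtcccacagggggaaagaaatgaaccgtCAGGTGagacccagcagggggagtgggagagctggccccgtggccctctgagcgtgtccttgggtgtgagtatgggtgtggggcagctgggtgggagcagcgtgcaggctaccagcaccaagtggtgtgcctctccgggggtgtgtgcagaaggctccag
Tgfa promoter, chr6:86194972-86195271, plus strand: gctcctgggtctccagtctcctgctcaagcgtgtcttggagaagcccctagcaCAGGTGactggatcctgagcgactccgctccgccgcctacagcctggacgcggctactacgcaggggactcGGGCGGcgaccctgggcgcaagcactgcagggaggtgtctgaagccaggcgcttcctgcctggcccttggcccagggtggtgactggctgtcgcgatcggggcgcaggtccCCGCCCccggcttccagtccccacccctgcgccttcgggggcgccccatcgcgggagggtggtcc
Erbb4 promoter, chr1:69108010-69108309, minus strand: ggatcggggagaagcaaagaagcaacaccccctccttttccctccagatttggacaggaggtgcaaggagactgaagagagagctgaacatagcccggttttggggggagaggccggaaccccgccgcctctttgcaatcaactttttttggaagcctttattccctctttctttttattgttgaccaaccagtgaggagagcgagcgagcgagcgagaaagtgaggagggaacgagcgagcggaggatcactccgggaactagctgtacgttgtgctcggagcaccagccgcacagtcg

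The Btc window held 1 E-box and none of the other letters, and the Tgfa window held 1 E-box and 2 GC boxes. None of the 5 motifs was in the Erbb4 window. Their GC content was 60.3%, 70.7% and 55.3%, beside a median of 52.7% over all windows. Areg, the neighbour of Btc, hardly varied and lay near the floor. Its window had 1 TATA box, 2 GC boxes, 1 cyclic AMP response element and 1 E-box. A match describes the letters only.

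Over all 24 mice the clusters whose residuals most resembled those of Btc were Ctsf (a lysosomal cathepsin), Ddr2 (a collagen receptor kinase), Axl (a receptor kinase for GAS6), Pcsk6 (a proprotein convertase) and Sfrp4 (a secreted Wnt antagonist). Pearson's r was 0.93, 0.92, 0.89, 0.89 and 0.88, and 0.90, 0.87, 0.82, 0.75 and 0.79 without the 4 mice. The most opposed were Pafah2, Ccnd1 (cyclin D1), Gm3916, Lipg (endothelial lipase) and Arl4c, from -0.80 to -0.79 over all mice and from -0.70 to -0.60 without the 4. Of these 10 clusters Ctsf had the smallest unadjusted p between genotypes, with a log2 difference of 0.21 (p = 0.0036). The 10 clusters were picked for their r over the 24 mice. As the 20 mice are part of these, r over them is no separate check.

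Some other markers also moved with Btc. The mesothelial genes Upk3b and Msln, which mark the lining of the fat pad, had r of 0.70 and 0.66 with Btc over 24 mice and 0.60 and 0.51 over 20. Upk3b read 9.79, 9.56 and 8.45 in Control 3, 6 and 7, the mice of lowest Btc, and had a median of 10.7 in the 20 others. Of 6 mesothelium markers 5 had differences above 0 over all mice, with a median of 0.11 and a range of list means of 7.21 to 9.08 in Control and 7.69 to 8.86 in AdipoQ-LPL mice. All 6 were above 0 in the first set (median 0.40), and all 6 were below 0 in the second set (median -0.20) and without the 4 mice (median -0.13), where the Btc difference was above 0. All 4 macrophage markers had differences above 0 over all mice, in both sets and without the 4 mice, with medians of 0.23, 0.32, 0.11 and 0.15. Of these Csf1r, the CSF1 receptor, differed by 0.27 (p = 0.0025, adjusted p = 0.49) and had r with Btc of 0.74 over 24 mice and 0.45 over 20. For the macrophage markers Mrc1, Cd68 and Emr1 r with Btc was 0.68, 0.56 and 0.52 over 24 mice. Over 20 it was 0.45, 0.33 and 0.0050. The mean level of the macrophage list ran from 9.39 to 10.4 in Control and from 9.98 to 10.7 in AdipoQ-LPL mice. Adipoq, the adipocyte hormone whose promoter drives the transgene, had r of 0.74 over 24 mice and 0.41 over 20, and a genotype difference of 0.12 (p = 0.035, adjusted p = 0.58). Other adipocyte markers did not share this, with r of 0.25 for Cidec and 0.64 for Pnpla2 over 24 mice. Over 20 these were -0.47 and 0.18. None of these markers was called, and their part in the Btc values was not tested.

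The markers of highest mean in each list, up to 2 a list, gave the following limma differences. For adipocytes, Cidec differed by 0.022 and Pnpla2 by 0.062, and for mesothelium, Upk3b by 0.17 and Upk1b by 0.15. For macrophages, Cd68 differed by 0.23 and Mrc1 by 0.22 (p = 0.0052), and for endothelium, Cdh5 by -0.025 and Pecam1 by -0.027. The epithelial pair was below 0, with Krt8 at -0.23 and Krt18 at -0.36. For smooth muscle and pericytes, Rgs5 differed by 0.045 and Acta2 by -0.33 (p = 0.041), for fibroblasts, Dcn by 0.055 and Col1a1 by -0.094, and for epididymis epithelium, Lcn5 by 0.069 and Lcn9 by -0.40. Among immune cells, Il1rl1 differed by 0.073 and Cd3e by -0.086, the mast cell genes Cpa3 by 0.14 and Kit by -0.12, and the neutrophil genes Mpo by 0.091 and S100a8 by -0.019. The Schwann cell gene Mbp differed by 0.0061, and the islet genes Nkx6-1 and Neurod1 by 0.075 and 0.17 (p = 0.010). None of these genes was called. Nkx6-1 and Neurod1 averaged 5.54 and 5.40, near the floor of 5. The islet genes Ins1, Ins2 and Iapp were below that floor and were not tested.

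The number sets themselves separated most of the genes. In limma 7 of the 10 genes (Egf, Hbegf, Ereg, Tgfa, Egfr, Erbb2 and Erbb4) were called, all higher in the second set, by 0.26 for Egfr to 0.55 for Egf. Of all tested clusters 82.9% were called and 81.9% called higher, with a median shift of 0.33, so this share of the genes is near the background. Btc, Areg and Erbb3 were not called, with differences of 0.024, 0.058 and 0.058. With each array centred on its median, 33.3% of clusters were called and 19.4% called lower. Then 2 of the 10 genes were called, both lower in the second set, with differences of -0.33 for Btc (adjusted p = 0.044) and -0.30 for Areg (adjusted p = 2.3e-05). The direction for the set therefore depends on the scaling, and after quantile normalization 1 of 2 calls was higher.

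The numbers also fall into 4 shorter runs, of which 3 hold both genotypes (5 Control and 2 AdipoQ-LPL mice, 2 and 2, and 5 and 2). The other, numbers 422 to 437 of the first set, holds 6 AdipoQ-LPL mice and no Control. With the run in place of the set in limma, Tgfa differed by -0.45 (SE 0.19, p = 0.029, adjusted p = 0.44), Erbb3 by -0.80 (SE 0.36, p = 0.038, adjusted p = 0.46) and Btc by 0.31 (SE 0.15, p = 0.046, adjusted p = 0.47). These 3 of the 10 genes had an unadjusted p under 0.05, beside 10.4% of all clusters, and none was called. In the run of 2 and 2, whose Control mice are Control 6 and 7, the differences were -0.76 for Tgfa, -2.11 for Erbb3 and 0.73 for Btc. In the other mixed runs they were -0.21 and -0.46 for Tgfa, -0.41 and -0.28 for Erbb3, and 0.29 and 0.053 for Btc.

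No gene of the 10 had a genotype difference shown to differ between the sets. The interaction was called for none of the 20208 clusters (0%), and 1606 clusters (7.95%) but none of the 10 genes had an unadjusted p under 0.05. Without the 4 mice of high Epcam 2 of the 10 did, Egf and Hbegf, beside 14.7% of clusters, and neither was called.

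Other parts of the pathway were taken from 5 lists, of 62 genes in all, of which 60 were tested and 0 called in limma. An unadjusted p under 0.05 was found for 6 of the 60, near the 8.37% of all tested clusters. The medians of the lists lay between -0.066 and -0.022, beside 0.0072 over all tested clusters. Among 5 other ligands of the family, the neuregulins Nrg1 to Nrg4 and Epgn, 2 were above and 3 below 0. Nrg2, a neuregulin that binds ERBB3 and ERBB4, had the smallest p, with a difference of -0.098 (SE 0.060, p = 0.12, adjusted p = 0.66). Nrg4, a neuregulin secreted by brown fat, differed by 0.11 (SE 0.075, adjusted p = 0.69).

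Of the 7 genes of ligand shedding 3 were above and 4 below 0. Adam12, a metalloprotease that can release HB-EGF, averaged 8.82 ± 0.47 in Control mice and 8.25 ± 0.53 in AdipoQ-LPL mice (SD, n = 12 each), with a limma difference of -0.41 (SE 0.16, p = 0.016, adjusted p = 0.52). Frmd8, which stabilizes the sheddase complex, differed by 0.098 (SE 0.054, p = 0.081), and Rhbdf2, an inactive rhomboid that carries ADAM17 to the cell surface, by -0.067 (SE 0.063, p = 0.29). For Adam10, the main sheddase of betacellulin, the difference was 0.0027 (SE 0.041), and for Adam17, the main sheddase of TGFA, -0.043 (SE 0.047). Both lay within 1 SE of 0.

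In the 20 tested genes of the receptor adaptors and kinase cascade, 8 were above and 12 below 0. Pik3ca, the catalytic subunit of PI3-kinase, had the smallest p, with a difference of 0.11 (SE 0.040, p = 0.013, adjusted p = 0.51). Its regulatory partner Pik3r1 differed by -0.15 (SE 0.087). Of 13 inhibitors and turnover genes 4 were above and 9 below 0. Eps15, an endocytic adaptor, differed by 0.084 (p = 0.017, adjusted p = 0.53), Rnf41, the ubiquitin ligase Nrdp1 that lowers ERBB3, by -0.10 (p = 0.030, adjusted p = 0.57) and the phosphatase Ptpn2 by -0.072 (p = 0.081).

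ERK-induced feedback and early genes, which rise when receptor signals reach ERK, were below 0 in 12 of 15 tested cases, beside 46.3% of all clusters, with a median of -0.024. This was 7 of 15 in the first set, beside 51.1% of clusters, and 12 of 15 in the second. The share of all clusters was not counted for the second set, where their median was 0.022 beside -0.11 for the list. Without the 4 mice of high Epcam 11 of 15 were below 0, with a median of -0.062 beside 0.0017 over all clusters. The share of all clusters below 0 was not counted there either. Spry4, a feedback inhibitor of receptor kinase signalling, averaged 8.09 ± 0.32 in Control mice and 7.57 ± 0.39 in AdipoQ-LPL mice (SD, n = 12 each). Its limma difference was -0.40 (SE 0.11, p = 0.0011, adjusted p = 0.44), at -0.55 in the first set, -0.21 in the second and -0.36 without the 4 mice. The ERK phosphatase Dusp4 differed by -0.25 (SE 0.11, p = 0.029, adjusted p = 0.57) and Phlda1 by -0.14 (SE 0.074, p = 0.076). Spry1, Spry2, Dusp6, Egr1 and Fos differed by -0.014 to 0.051, and the rest of the list by -0.105 (Ier3) to 0.054 (Etv4). Spry4 and Dusp4 were the 2 of the 15 with an unadjusted p under 0.05, and none was called.

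**Figure D5:**
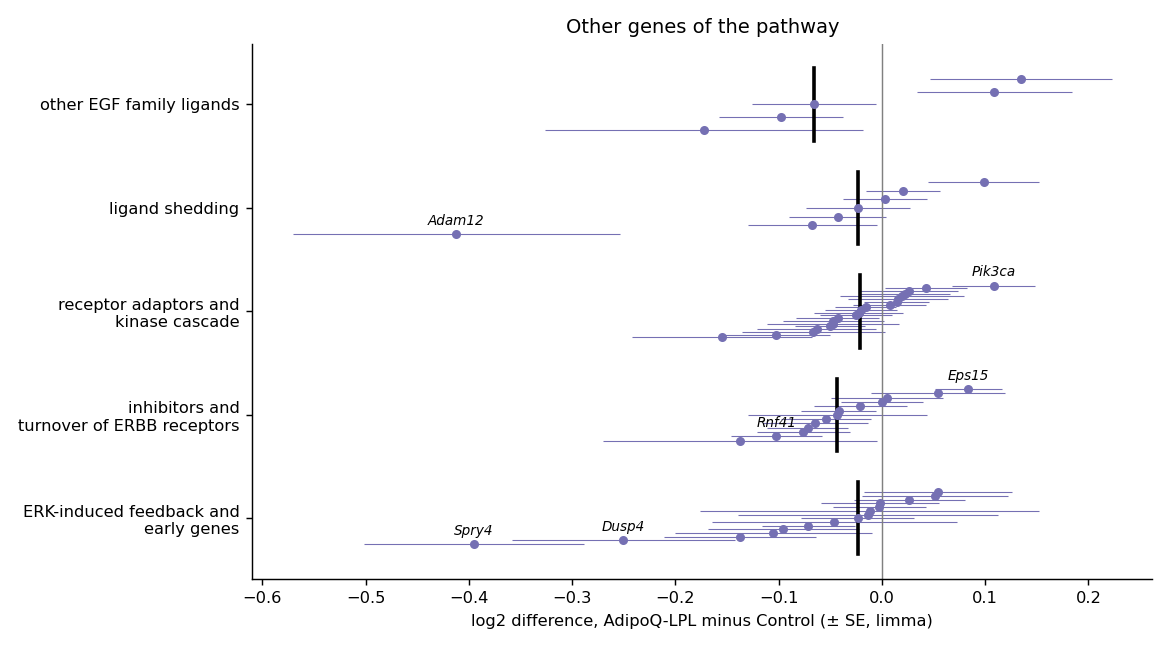
Log2 difference between AdipoQ-LPL and Control mice (x axis, with SE bars from limma) of the 60 tested genes of 5 pathway lists (y axis), with the median of each list as a black line. Genes with an unadjusted p under 0.05 are named, of which Spry4 (-0.40) and Adam12 (-0.41) are farthest from 0.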

How the data were processed

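The deposited matrix holds RMA-normalized values on the log2 scale for 41345 transcript clusters in 24 mice, made by the authors with Partek. Versions and the array's genome build: not given in the sources used here. Of the deposited workbook of the authors' comparisons only symbols, accessions and the number of markers per cluster (another kind of unit) were used. Its group means, p-values, ratios and fold changes were not.

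The 20208 named clusters whose mean reached a floor of 5 (log2) in at least 1 genotype were fitted with limma 3.58.1 (R 4.3.3) on genotype and number set, with Benjamini-Hochberg adjustment over all of them and a threshold of 0.05 ("called"). The methods name no model for the arrays but an unpaired t-test for 2 groups of mice, which was added, after seeing the data, as the methods' t-test. A fit without the number set was an alternative. Within sets every relabelling of the mice was used. Residuals are values minus the mean of their genotype and number set. Alternatives were no floor, the number run or replicate number as a block, each set alone, centring, quantile normalization, a trended robust prior, array weights, the mean over clusters, the thresholds of the study and omission of each mouse. Omission of 4 mice was added after seeing the data. The fit was tested on simulated data. Precision is limited by how many arrays there are.

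The members and lists were chosen with earlier results of these data known. Named were the 10 genes, in each pathway list the genes called or else the 3 of lowest p, in marker lists the 2 of highest mean (of these pathway and marker genes 2 are not reported here), and the 5 clusters most and least like Btc. Others, such as Epcam, Adipoq, Msln, Csf1r and Adam7, were chosen after their values were seen. None of the 54 tested genes of the 13 marker lists was called. The medians of these lists lay between -0.51 (epididymis epithelium) and 0.23 (macrophage). The lists covered adipocytes, mesothelium, epididymis epithelium, epithelium, macrophages, endothelium, stromal fibroblasts, smooth muscle, Schwann cells, T and innate lymphoid cells, mast cells, neutrophils and islets. Python 3.11.15, numpy 2.4.6, pandas 2.3.3 and matplotlib 3.10.9 were used.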

Additional observations from a re-analysis of the deposited data

Results flagged for a closer look

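Each gene was looked at for a mouse that lies far outside its own group of genotype and number set, by the gap to its nearest neighbour over the range of the group (Dixon's 95% limit). Of 40 such groups 5 had such a mouse. The nominal rate of about 1 in 20 holds for independent normal values, and the share over all tested clusters was not counted. Erbb3 and Erbb4 are correlated (r = 0.76) and point to the same mouse, so 5 of 40 is not read as an excess. Erbb3 was 8.3954 in Control 3, and the next of the 5 first-set Control mice was at 6.12. Erbb4 was 5.849 in the same mouse, with the next at 4.71. Egf was 7.1472 in Control 6, the mouse of highest Crisp1 and Myh11, with the next second-set Control mouse at 5.88. Hbegf was 6.7452 in Control 2, with the next at 6.58. Egfr was 9.6663 in AdipoQ-LPL 2, below the 9.87 of the next second-set AdipoQ-LPL mouse. Control 3 and Control 6 are among the 4 mice of high Epcam, and Control 2 and AdipoQ-LPL 2 are not. What sets these mice apart was not tested.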

How the results depend on the processing

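None of the 10 genes was called between genotypes, and none for the interaction, under any alternative run, and the smallest adjusted p of a genotype difference over the 370 refits of single genes was 0.42. The count of clusters called between genotypes was 2 and changed to 1 in the second number set alone (Lrrc4) and by the methods' t-test (Snd1), to 55 at the fold and unadjusted p thresholds of the study's methods, and to between 2 and 4 when each mouse was left out. Genes called for the number set went from 7 to 2 with centred arrays and to 2 with quantile normalization (6 to 7 over single omissions). Pathway genes at the thresholds of the study were 2, and 0 were called otherwise. Of the 20 within-set comparisons, 2 had an exact permutation p under 0.05 without the 4 mice of high Epcam, and 0 to 2 when each mouse was left out. Those from single omissions were Btc without Control 1, Egf and Hbegf without Control 6, Tgfa without Control 8, Control 9 or AdipoQ-LPL 2, and Erbb2 without AdipoQ-LPL 4.

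In the limma alternatives the genotype difference kept its sign for Btc (0.075 to 0.32), Ereg (0.048 to 0.15), Tgfa (-0.50 to -0.088) and Erbb3 (-0.81 to -0.12). Within the first set it turned for Tgfa and Erbb3 without the 4 mice (0.059 and 0.027) and without Control 3 (0.16 and 0.24). Its sign changed in the first set alone for Egf (-0.036), Hbegf (-0.0075) and Erbb2 (0.030), in the second set alone for Egfr (-0.0019), and without the number set for Egf (-0.11), Hbegf (-0.024) and Egfr (-0.036). It also changed for Areg with quantile normalization (-0.0084) and for Erbb4 without the 4 mice (0.026). Over single omissions Egf ran from -0.021 to 0.12, Areg from -0.014 to 0.042 and Erbb4 from -0.16 to 0.024. The cause was not tested. Btc was lowest without Control 3 (0.15) and highest without Control 1 (0.32, unadjusted p = 0.015, adjusted p = 0.44). Mice of the same replicate number did not pair (r of their residuals from -0.43 to 0.26, above 0.1 in 6 of 12), and with the replicate block 0 of the 10 genes and 2 clusters were called.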
